A study of Mus musculus with 9 samples.

Results

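The miR-15 family is a set of microRNA (miRNA) genes whose products carry the same seed. The precursors followed here were mmu-mir-15a, mmu-mir-15b, mmu-mir-16-1, mmu-mir-16-2, mmu-mir-195a and mmu-mir-497a, read in small RNA libraries of mouse atrial appendages. They were picked out by name, as miRNA genes that share a seed and are known to limit the division of heart muscle cells. The rule uses no measured value, but the family was proposed with earlier results of these data known. These 6 precursors were among 661 miRNA precursors, and among 996 small RNA features of all classes, that had a read in at least 1 library. Each of the 6 was listed in all 9 libraries, all their reads matched the genome, and all 6 passed the filter on low counts.

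The libraries were made by PANDORA-seq, a small RNA method in which the enzyme AlkB strips methyl marks that stop reverse transcription and T4 polynucleotide kinase (T4PNK) repairs the ends of RNA so that adapters can be joined. All mice were C57BL/6. Curcumin-treated mice were 18 months old and had been given 100 mg/kg of curcumin, a compound of turmeric, each day in non-fat skim milk since the age of 12 months. Old mice were also 18 months old and young mice 5 months old, and both were labelled as without curcumin. The labels do not say whether they were given the milk. Each group had 3 libraries. The labels do not say whether a library came from 1 mouse or from several, so the p-values below measure the spread between these libraries, which may in part be technical.

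A miRNA guides the protein Argonaute to messenger RNAs that pair with its seed, and these messengers are then repressed or degraded. The miR-15 family is known for repressing genes of the cell cycle, such as cyclins and Chek1, and the survival gene Bcl2. In the mouse heart it is known for its part in the withdrawal of heart muscle cells from division after birth, in which miR-195 has been studied most. The pair miR-15a and miR-16-1 is known in human leukaemia as a tumour suppressor that is often deleted.

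The mature 5p strands of the family are shown first, since the shared seed defines the family and the bases after it decide which members can be told apart by their reads. Sequences are from RefSeq (mouse, GRCm38.p6), in which all 6 members were matched. Each is written 5′ to 3′, and the capitals mark the seed, bases 2 to 8.
miR-16-5p: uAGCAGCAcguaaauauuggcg
miR-195a-5p: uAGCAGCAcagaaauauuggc
miR-15a-5p: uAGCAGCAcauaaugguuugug
miR-15b-5p: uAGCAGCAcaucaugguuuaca
miR-497a-5p: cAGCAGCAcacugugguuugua
Among the 1679 mature mouse miRNAs of the table, 10 had these bases 2 to 8. The first 9 bases of miR-15a-5p, miR-15b-5p and miR-195a-5p were identical to those of miR-16-5p, while miR-497a-5p differed at its first base (U1C, counted from 1 at the 5′ end, with the base of miR-16-5p first). miR-195a-5p was closest to miR-16-5p, with 19 of 21 bases the same and the changes G10A and U11G. miR-15a-5p had 16 of 22, miR-15b-5p 14 of 22 and miR-497a-5p 11 of 22 bases the same.

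The genes lie in 3 pairs on the mm10 genome. mir-15a (chr14:61632027-61632110) and mir-16-1 (chr14:61631880-61631972) are on the minus strand, 54 bases apart, in an intron of the long non-coding RNA gene Dleu2. mir-15b (chr3:69009772-69009835) and mir-16-2 (chr3:69009902-69009996) are on the plus strand, 66 bases apart, in an intron of Smc4, which encodes a subunit of condensin. mir-497a (Mir497, chr11:70234717-70234800) and mir-195a (chr11:70235042-70235135) are on the plus strand with 241 bases between them, and the GENCODE annotation has no gene other than miRNAs that spans them. The 2 hairpins of miR-16 are shown because both give miR-16-5p, which is in capitals.
mir-16-1: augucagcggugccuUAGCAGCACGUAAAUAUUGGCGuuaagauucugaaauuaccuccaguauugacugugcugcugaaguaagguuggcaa
mir-16-2: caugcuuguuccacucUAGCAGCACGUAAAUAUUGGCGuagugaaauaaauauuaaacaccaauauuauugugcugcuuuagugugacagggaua
The 5p strand is the same 22 bases in both, and the hairpins differ outside it. In every library the reads listed for mir-16-1 and mir-16-2 differed by 31 or fewer, and their ratio lay between 0.998 and 1.012. Their values are therefore 1 measurement divided between 2 loci, and which locus made the RNA cannot be told apart.

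Levels are given as RPM, reads of a member in every 1000000 clean reads, or in every 1000000 miRNA reads, of the same library. Clean reads ranged from 12899427 to 19707803 per library, of which miRNAs took 3.21%, 4.22% and 3.53% in curcumin-treated, 3.32%, 1.23% and 2.37% in old and 4.66%, 1.34% and 1.88% in young mice. All 9 heart and striated muscle miRNAs of the marker list were found, at a summed 359100 to 431000 RPM of miRNA reads in curcumin-treated, 307000 to 360100 in old and 320600 to 385600 in young mice. Of these markers miR-208b was at 0 in 7 libraries and miR-499 in 5, while miR-208a, which is encoded in the gene of the cardiac myosin heavy chain alpha, had 199 to 676 reads in each library. The libraries numbered 1 stood apart: within a group their counts correlated with those of numbers 2 and 3 at Pearson r between 0.940 and 0.970, whereas numbers 2 and 3 correlated with each other at 0.986 to 0.994. Young replicate 1 also held the highest summed markers of red blood cells, 6353 RPM of miRNA reads against 766 to 4033 in the other 8 libraries, and of leukocytes, 7908 against 2391 to 3811. The endothelial marker miR-126a had 214700 to 281700 RPM of miRNA reads in curcumin-treated, 247600 to 268500 in old and 220100 to 238300 in young mice. The summed markers of epithelium, neurons and liver were at most 173, 81.0 and 190 RPM of miRNA reads in any library.

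Most reads of the family came from miR-16. The 2 miR-16 loci held between 94.4% and 96.8% of the family's reads in a library, with a median of 96.0%. By mean RPM of clean reads over the 9 libraries, mir-16-1 and mir-16-2 ranked 12 and 13 among 661 precursors, each with 341. mir-195a ranked 82 with 13.0, mir-15a 96 with 8.06, mir-15b 111 with 5.61 and mir-497a 121 with 4.28. These are levels of reads, and ligation can favour one miRNA over another, so the order of members need not be that of their molecules. The mature strands are 21 or 22 bases long.

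In RPM of clean reads, the summed family stood at 692, 873 and 792 in curcumin-treated mice, at 703, 386 and 630 in old mice and at 1501, 354 and 484 in young mice. The young libraries held both the highest and the lowest value of all 9, so that the groups overlapped. The mean was 785 ± 90.8 in curcumin-treated, 573 ± 166 in old and 780 ± 628 in young mice (SD, n = 3 each). As a share of miRNA reads, the family took 2.16%, 2.07% and 2.24% in curcumin-treated mice, against 2.12%, 3.15% and 2.66% in old and 3.22%, 2.64% and 2.57% in young mice. On this scale the curcumin-treated libraries lay below all young ones and below 2 of the 3 old ones. The mean share was 2.16% ± 0.0885, 2.64% ± 0.515 and 2.81% ± 0.358 in curcumin-treated, old and young mice (SD, n = 3 each). The libraries with the highest miRNA share of clean reads within the old and young groups, both numbered 1, also held the most family reads per clean read. The pooled SD of the summed family within groups was 0.693 on the log2 scale per clean read and 0.198 per miRNA read. In bulk tissue, fewer cells of a type and less of an RNA per cell cannot be told apart.

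**Figure D1:**
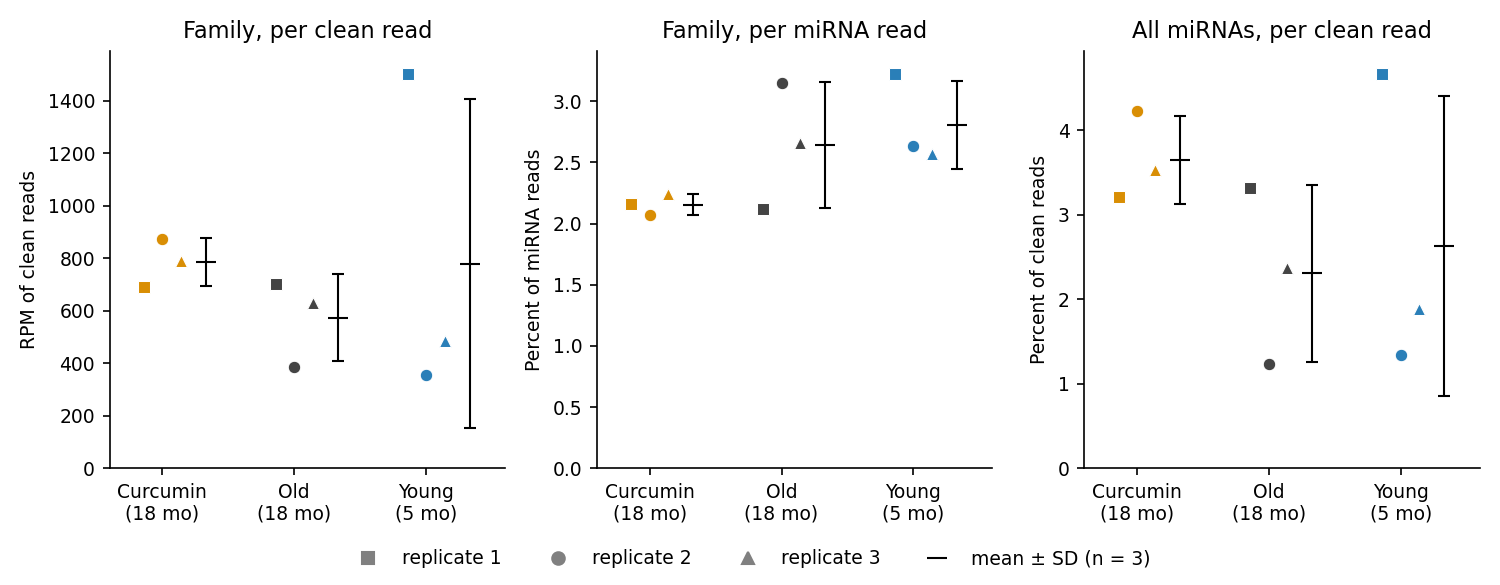
Levels of the summed miR-15 family in RPM of clean reads (left) and as percent of miRNA reads (middle), and all miRNA reads as percent of clean reads (right), for curcumin-treated, old and young mice. Symbols are libraries by replicate number and black bars are mean ± SD of 3 libraries; the family is at 1501 RPM of clean reads in young replicate 1 and at 354 in young replicate 2, but between 2.57% and 3.22% of miRNA reads in all 3 young libraries.

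miR-16, the most abundant member, had 20580, 19525 and 21363 RPM of miRNA reads in curcumin-treated mice over both loci, 20346, 30470 and 25584 in old mice, and 30824, 25408 and 24723 in young mice. The 3 curcumin-treated libraries were below all 3 young ones, and old replicate 1 lay among the curcumin-treated ones. In RPM of clean reads, miR-16 had 660, 824 and 753 in curcumin-treated mice, against 675, 374 and 606 in old and 1437, 341 and 466 in young mice. On that scale young replicate 1 exceeded every other library and the other young libraries lay below all curcumin-treated ones. Within the libraries numbered 1, miR-16 in RPM of miRNA reads was 20580 in curcumin-treated, 20346 in old and 30824 in young mice.

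mir-195a, studied for its rise in the mouse heart after birth, had 13.0, 22.2 and 18.1 RPM of clean reads in curcumin-treated mice, against 11.2, 5.88 and 12.3 in old and 16.8, 7.99 and 9.46 in young mice. All 3 curcumin-treated libraries exceeded all 3 old ones, although the lowest of them, at 13.0, was close to the highest old one, at 12.3. In RPM of miRNA reads it had 404, 527 and 512 in curcumin-treated mice, against 337, 479 and 517 in old and 361, 595 and 502 in young mice. On this scale all 3 groups overlapped, and the lowest value of each group was in its library numbered 1.

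mir-497a, encoded beside mir-195a, had 5.31, 6.83 and 5.60 RPM of clean reads in curcumin-treated mice, against 4.16, 1.96 and 3.94 in old and 7.05, 0.767 and 2.87 in young mice. The curcumin-treated libraries again exceeded all old ones, and young replicate 1 was highest of all. In RPM of miRNA reads it had 166, 162 and 159 in curcumin-treated mice, against 125, 160 and 167 in old and 151, 57.1 and 152 in young mice. All 3 curcumin-treated libraries were above all 3 young ones, and they overlapped with the old ones. The value of 57.1 in young replicate 2 rested on 12 reads, with a 95% Wilson interval of 32.7 to 99.8 that covers counting error only. The ratio of mir-195a to mir-497a reads was between 2.39 and 3.30 in 8 libraries and 10.4 in young replicate 2.

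mir-15a, the partner of mir-16-1, had 7.60, 13.6 and 9.32 RPM of clean reads in curcumin-treated mice, against 8.25, 2.71 and 5.50 in old and 18.8, 3.45 and 3.26 in young mice. Its curcumin-treated and old libraries overlapped, and young replicate 1 was the highest library. In RPM of miRNA reads it had 237, 322 and 264 in curcumin-treated mice, against 248, 221 and 232 in old and 404, 257 and 173 in young mice. The young libraries spanned both other groups on this scale.

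mir-15b, the partner of mir-16-2, had 6.05, 5.84 and 5.11 RPM of clean reads in curcumin-treated mice, against 4.28, 1.84 and 2.45 in old and 21.6, 0.894 and 2.40 in young mice. The curcumin-treated libraries lay above all old ones, and young replicate 1 had more than 3 times the next highest value. In RPM of miRNA reads it had 189, 138 and 145 in curcumin-treated mice, against 129, 150 and 103 in old and 464, 66.6 and 128 in young mice. It rested on 426 reads in young replicate 1 and on 14 in young replicate 2, which gives the value of 66.6 a 95% Wilson interval of 39.7 to 112. The ratio of mir-15a to mir-15b reads was 0.871 in young replicate 1 and between 1.26 and 3.86 in the other 8.

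**Figure D2:**
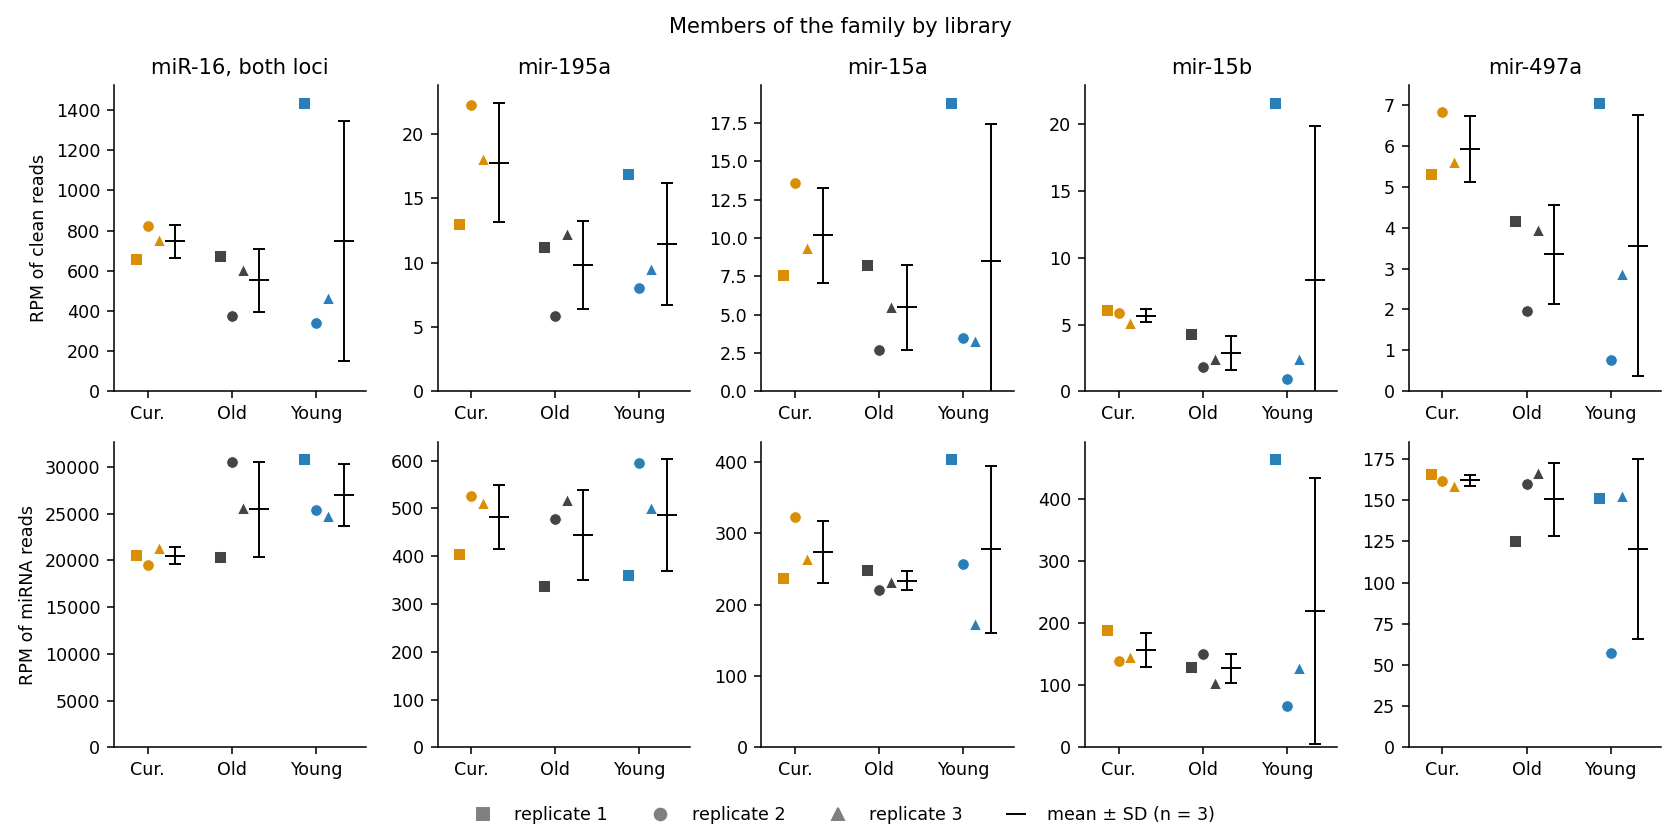
Reads of each member in RPM of clean reads (upper row) and in RPM of miRNA reads (lower row) in curcumin-treated (Cur.), old and young mice. Symbols are libraries by replicate number and black bars are mean ± SD of 3 libraries, with bars that would reach below 0 ended at the axis; young replicate 1 is highest per clean read for miR-16, mir-15a, mir-15b and mir-497a, and curcumin replicate 2 for mir-195a.

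The loci kept no fixed proportions to miR-16. The ratio of miR-16 to mir-15a reads ran from 60.6 in curcumin replicate 2 to 143 in young replicate 3, and that of miR-16 to mir-195a from 37.1 in curcumin replicate 2 to 85.3 in young replicate 1. Across the 9 libraries the members, with both miR-16 loci as 1, correlated in pairs at Pearson r of 0.706 to 0.962 on the log2 scale per clean read and at −0.672 to 0.583 per miRNA read. The first range shares the miRNA content of each library as a common factor. These correlations are descriptions over 9 libraries of 3 groups.

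Curcumin-treated and old mice were compared to ask what differed with the treatment at 18 months of age. Per clean read all 6 members had positive fitted values, with a median log2 change of 0.84, and none passed the test. Positive values were general among miRNAs: 179 of 209 tested miRNAs (85.6%) were positive, with a median of 0.46, and the median of all 520 features was 0.31. Per miRNA read the members parted: mir-16-1 and mir-16-2 were at −0.31 and the other 4 between 0.11 and 0.31, where the median of all miRNAs tested on that scale was −0.25.

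By the quasi-likelihood test of edgeR with Benjamini-Hochberg adjustment at 0.05, 0 of 520 features passed per clean read, a background of 0%, and 0 miRNAs passed per miRNA read, also 0%. At an unadjusted p under 0.05 there were 20 and 18, and DESeq2 called 0 on both scales. Per clean read the log2 changes were 0.86 (SE 0.45) for mir-195a, 0.82 (SE 0.69) for mir-497a, 0.89 (SE 0.73) for mir-15a and 0.99 (SE 0.95) for mir-15b. They were 0.44 for mir-16-1 and 0.43 for mir-16-2 (SE 0.50 each), and the adjusted p of edgeR was 0.832 for all 6. Each miR-16 locus was at 0.22 with TMM scaling, with DESeq2 and without old replicate 2, and mir-15a was at 0.56 without that library. The curcumin-treated libraries exceeded all old ones for 3 of the 6 members, mir-15b, mir-195a and mir-497a, where 55 of all 520 features (10.6%) and 30 of the 209 miRNAs did so. Per miRNA read the groups overlapped for all 6 members. There the log2 changes were 0.31 (SE 0.59) for mir-15b, 0.23 (SE 0.34) for mir-15a, 0.12 (SE 0.29) for mir-195a and 0.11 (SE 0.39) for mir-497a, with adjusted p from 0.794 to 0.942 by edgeR. With both loci summed, miR-16 had a log2 change of −0.31 (SE 0.17, adjusted p = 0.559, edgeR) per miRNA read, with 2 of 3 old libraries above all curcumin-treated ones. It was −0.09 with TMM scaling of the miRNA reads and −0.16 without old replicate 2, given here for mir-16-1.

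A value per clean read is the value per miRNA read times the miRNA share of clean reads. This share was 3.21% to 4.22% in curcumin-treated and 1.23% to 3.32% in old mice. The summed family had a log2 difference of 0.49 per clean read and −0.28 per miRNA read between these groups. Why the miRNA share differed was not tested. The 2 smooth muscle markers, miR-143 and miR-145a, summed to 17540 to 18340 RPM of miRNA reads in curcumin-treated and 14150 to 16650 in old mice and did not overlap, and the muscle markers given above overlapped by 1 library. The red blood cell markers miR-144, miR-451a, miR-486a and miR-486b summed to 766, 1365 and 1422 RPM of miRNA reads in curcumin-treated and 1222, 3461 and 1542 in old mice. Within the old libraries the order of these sums was that of miR-16 per miRNA read, with replicate 2 highest and replicate 1 lowest. The orders differed in the curcumin-treated libraries, where replicate 1 had the lowest sum and replicate 2 the least miR-16. In the young libraries replicate 1 was highest in both, but replicate 2 had the lowest sum and replicate 3 the least miR-16. The part of these cells in the values was not tested either.

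The number of features that passed changed without the libraries numbered 1. With them left out, with 2 libraries a group, edgeR called 33 of 521 features (6.33%) per clean read between curcumin-treated and old mice, among them 21 miRNAs that rose and 0 that fell, and no member was among them. The smallest adjusted p of a member was 0.0708, for mir-15a, with a log2 change of 1.48 (SE 0.45). Per miRNA read 27 of 206 miRNAs (13.1%) passed, of which 8 rose and 19 fell. mir-16-1 had a log2 change of −0.46 (SE 0.16, adjusted p = 0.0728, edgeR) there, and no member passed.

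Old and young mice were compared for differences with age. Per clean read all 6 members had negative fitted values, and per miRNA read 5 of 6, and none passed. The signs depended on single libraries. Without young replicate 1 all 6 members were positive per clean read, at log2 values between 0.16 and 0.89. Per miRNA read mir-195a was then still negative, at −0.31, and the other members were positive. Without old replicate 2, mir-195a and mir-497a were also positive per clean read, at 0.03 and 0.18. The family had a mean of 573 ± 166 RPM of clean reads in old and 780 ± 628 in young mice (SD, n = 3 each), a difference smaller than the spread between the young libraries.

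edgeR called 0 of 520 features per clean read (0%) and 0 miRNAs per miRNA read (0%), with 4 and 3 at an unadjusted p under 0.05, and DESeq2 called 0 on both scales. The log2 change per clean read was −1.54 (SE 0.96) for mir-15b, −0.64 (SE 0.73) for mir-15a, −0.44 (SE 0.50) for each miR-16 locus, −0.23 (SE 0.45) for mir-195a and −0.09 (SE 0.69) for mir-497a, each with an adjusted p of 0.995 by edgeR. The median of the 209 miRNAs was −0.24, with 52 positive. Per miRNA read the values were −0.84 (SE 0.59) for mir-15b, −0.26 (SE 0.34) for mir-15a, −0.08 (SE 0.17) for each miR-16 locus, −0.13 (SE 0.29) for mir-195a and 0.29 (SE 0.39) for mir-497a, each with an adjusted p of 0.985 by edgeR. The median of all tested miRNAs was −0.10. For no member did the old and young libraries lie apart on either scale.

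Summed markers of blood cells overlapped between old and young mice. The red blood cell miRNAs miR-144, miR-451a, miR-486a and miR-486b were all found, with a sum of 1222 to 3461 RPM of miRNA reads in old and 2835 to 6353 in young mice. The 4 leukocyte miRNAs were all found, with sums of 2391 to 3461 in old and of 7908, 2735 and 2547 in young mice. The highest value of each was in young replicate 1, which also had the most miR-16, mir-15a and mir-15b of all libraries on both scales, and the part of these cells in the members' values was not tested.

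The comparison of curcumin-treated with young mice sets treated old mice against untreated young ones, so that age and treatment cannot be told apart. It shares its libraries with the comparisons above. miR-16 had fewer reads per miRNA read in every curcumin-treated library than in any young one, 20490 ± 922 against 26985 ± 3343 RPM (SD, n = 3 each), a log2 change of −0.40 (SE 0.17) that did not pass (adjusted p = 0.325, edgeR, both loci summed). mir-497a had more in every curcumin-treated library, 162 ± 3.43 against 120 ± 54.7 RPM of miRNA reads (SD, n = 3 each), with a log2 change of 0.41 (SE 0.39, adjusted p = 0.647, edgeR). Without young replicate 2, the library with 12 reads, this change was 0.09. The median log2 change of all tested miRNAs was −0.31, close to that of miR-16. With TMM scaling of the miRNA reads, that of mir-16-1 was −0.19.

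Of the miRNAs tested per miRNA read, 21 (9.63%) were lower in all curcumin-treated libraries than in all young ones, which included mir-16-1 and mir-16-2, 1 measurement in 2 loci. Another 9 (4.13%) were higher in all curcumin-treated libraries, which included mir-497a. The other members overlapped, with log2 changes of −0.03 (SE 0.34) for mir-15a, −0.53 (SE 0.57) for mir-15b and −0.01 (SE 0.29) for mir-195a. edgeR called 0 of the miRNAs (0%), with 28 at an unadjusted p under 0.05, among them both miR-16 loci at 0.0437, and DESeq2 called 1, which was no member. A fit blocked on replicate number called 4 miRNAs (1.83%, edgeR), none of them a member. Per clean read edgeR called 0 of 520 features (0%), with 20 at an unadjusted p under 0.05, and DESeq2 called 1. The members' log2 changes were 0.72 (SE 0.69) for mir-497a, 0.63 (SE 0.45) for mir-195a, 0.25 (SE 0.72) for mir-15a, −0.55 (SE 0.94) for mir-15b and −0.00 and −0.01 (SE 0.50 each) for the miR-16 loci, each with an adjusted p of 0.997 by edgeR. The median of the 209 miRNAs was 0.26.

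The calls in this comparison changed without young replicate 1. Without it edgeR called 31 of 222 miRNAs (14%) per miRNA read, and no member was among them. Without the 3 libraries numbered 1 it called 40 of 206 (19.4%) per miRNA read, 10 higher and 30 lower, again with no member. Per clean read it then called 33 of 521 features (6.33%), with 24 miRNAs that rose and 0 that fell. mir-15a was the only member among these, with a log2 change of 1.77 (SE 0.46, adjusted p = 0.0425, edgeR, 2 libraries a group), where the median of the miRNAs was 0.94. The adjusted p of the other members lay between 0.0622 and 0.0848. With young replicate 1 alone left out, mir-15a had a log2 change of 1.60 per clean read and an adjusted p of 0.224 by edgeR. Per miRNA read, without the 3 libraries numbered 1, mir-15a had a log2 change of 0.45 (SE 0.35, adjusted p = 0.351, edgeR). The red blood cell markers were at 766 to 1422 RPM of miRNA reads in curcumin-treated and 2835 to 6353 in young mice, and did not overlap. In RPM of clean reads they were at 24.6 to 57.6 and at 38.1 to 296, and overlapped. Their part in the values of miR-16, which red blood cells also contain, was not tested.

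**Figure D3:**
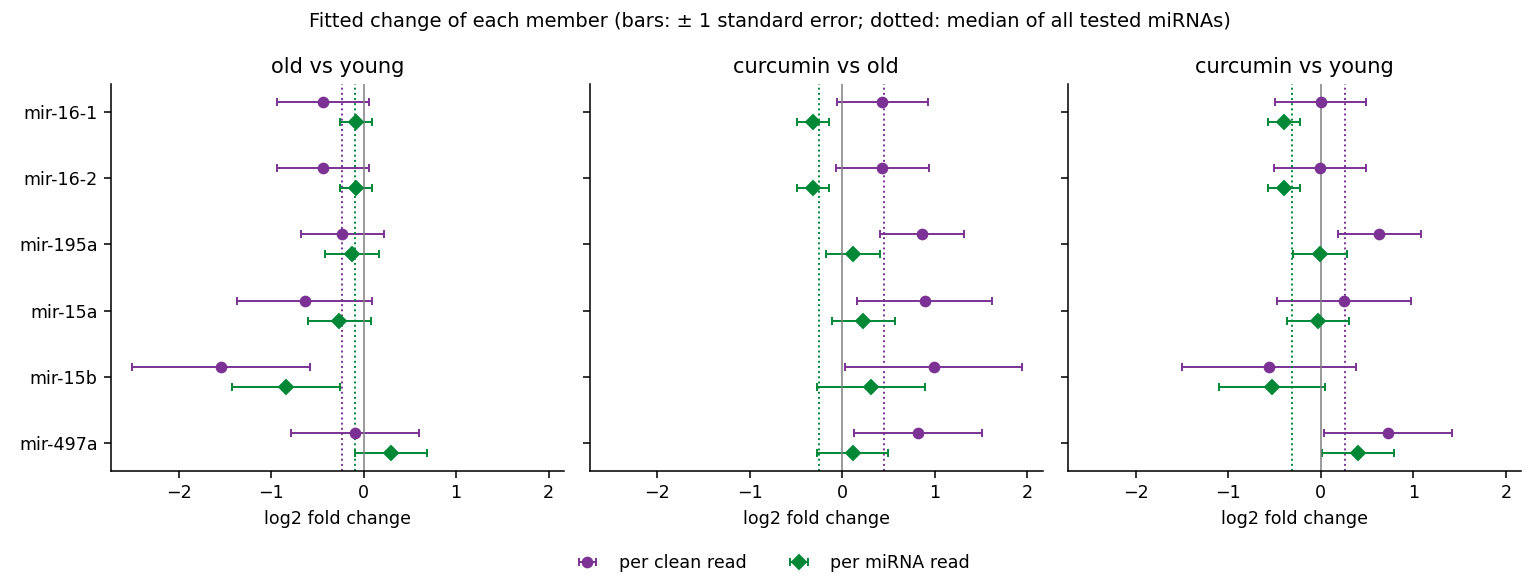
Fitted log2 fold change of each member in old against young, curcumin-treated against old and curcumin-treated against young mice, per clean read (circles) and per miRNA read (diamonds), from edgeR with 3 libraries a group. Bars are ± 1 standard error and dotted lines the median of all tested miRNAs on each scale; no value passed at an adjusted p of 0.05, and in curcumin-treated against old mice all 6 members are positive per clean read, as are 179 of 209 miRNAs.

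Other miRNAs with the same seed were followed as relatives. The mature strands of miR-322, which shares bases 2 to 8, and of miR-503, which shares bases 2 to 7 alone, are shown because both are expressed from the X chromosome and read in these atria, again with bases 2 to 8 in capitals.
miR-322-5p: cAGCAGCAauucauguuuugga
miR-503-5p: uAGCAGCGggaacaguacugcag
Both are known in mouse muscle cells for promoting exit from the cell cycle. mir-322 had 54.9, 60.2 and 52.5 RPM of clean reads in curcumin-treated mice, against 53.5, 14.4 and 30.2 in old and 80.9, 16.2 and 18.8 in young mice, more than any member but miR-16. Its log2 change per clean read was 0.77 (SE 0.67, adjusted p = 0.832, edgeR) in curcumin-treated against old mice and −0.24 (SE 0.66, adjusted p = 0.995, edgeR) in old against young mice. mir-503 had 57, 39 and 40 reads in curcumin-treated mice, against 81, 35 and 22 in old and 103, 7 and 25 in young mice, and passed in no comparison. miR-195b, which also has the seed, was listed with 0.5 reads in 1 curcumin-treated and 1.5 reads in 1 old library, and miR-6353 with 2 reads in 1 curcumin-treated and 1 read in 1 young library.

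Of 20 miRNA loci reported to hold back the division of heart muscle cells in addition to the family, among them miR-1a, miR-133a, miR-29 and let-7, all 20 were tested and 0 rose or fell in any comparison on either scale (edgeR). Per clean read 20 of 20 had positive fitted values in curcumin-treated against old mice (median 0.62, beside 0.46 for all 209 miRNAs), and 19 of 20 had negative ones in old against young mice (median −0.27, beside −0.24). Per miRNA read 13 of 20 were negative in curcumin-treated against old mice (median −0.07, beside −0.25 for all miRNAs). miR-1a, the main miRNA of striated muscle and the most abundant of this list, had 5604, 8819 and 7266 RPM of clean reads at its mir-1a-2 locus, which shares reads with mir-1a-1, in curcumin-treated mice, against 5791, 1806 and 4055 in old and 8749, 2040 and 3240 in young mice. Its log2 change in curcumin-treated against old mice was 0.90 (SE 0.55, adjusted p = 0.832, edgeR) per clean read and 0.26 (SE 0.12, adjusted p = 0.503, edgeR) per miRNA read.

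Of 16 loci reported to promote division of heart muscle cells, such as miR-199a and miR-17-92, 10 were tested per clean read and 9 per miRNA read, and 0 rose or fell (edgeR). Per clean read their median log2 change was 0.64 in curcumin-treated against old mice, with 10 of 10 positive. It was −0.63 in old against young mice, with 8 of 10 negative. All 209 tested miRNAs had medians of 0.46 and −0.24 in these comparisons, with 85.6% and 24.9% positive. Per miRNA read the medians of the list were −0.02 and −0.27, beside −0.25 and −0.10 for all tested miRNAs. mir-199a-2, the most abundant of them, had 90.4, 121 and 97.5 RPM of clean reads in curcumin-treated mice, against 108, 30.5 and 67.7 in old and 130, 38.0 and 53.7 in young mice. Its values in RPM of miRNA reads were close, 2764 to 2870 in curcumin-treated, 2484 to 3243 in old and 2784 to 2850 in young mice.

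The precursors most like the summed family across the 9 libraries were mir-130a (Pearson r = 0.82), mir-93 (0.81), mir-451a (0.69), let-7g (0.67) and mir-145a (0.67), on log2 RPM of miRNA reads with 1 added, among 84 candidates with a mean of at least 10 RPM of clean reads. These are descriptions of libraries that share their miRNA totals. On log2 RPM of clean reads, r was 0.98, 0.96, 0.75, 0.96 and 0.94 in the same order, where the median of the 84 candidates was 0.88. On that scale mir-451a was thus less like the family than most candidates. mir-451a is a miRNA of red blood cells, mir-93 belongs to the cluster miR-106b-25 and mir-145a is made in smooth muscle.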

How the data were processed

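Each of the 3 groups had 3 small RNA libraries, made from the atrial appendages of mice. Per the labels' protocols, RNA treated with AlkB and T4PNK was size-selected at 15 to 45 nucleotides and read over 75 cycles. Per the submitters' processing notes, cutadapt 2.5 and the build mm10 were used. How reads were annotated, and whether molecular identifiers were used, is not given in the sources used here. In each annotation the deposited values are expected counts, some of them fractions, and the values of loci with the same mature strand show that reads matching several loci were divided among them; they are not normalized.

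For each feature, genome-matched and unmatched reads were added together. Totals of a class were dropped, the ends of a tRNA were subtracted from its whole entry, and a precursor without an entry in a library counted as 0. Rates were taken per 1000000 clean reads and per 1000000 miRNA reads (RPM). For the tests, expected counts were rounded to whole numbers and fitted in R 4.3.3 with edgeR 4.0.16 (filterByExpr, glmQLFit robust, glmQLFTest, group as the only term, all 9 libraries), once over all features with clean reads as library size (520 of 996 kept) and once over miRNAs alone with miRNA reads as library size. Benjamini-Hochberg adjustment ran over all features tested, at 0.05. Medians of a list are of fitted log2 changes. Single rates carry 95% Wilson intervals, which hold counting error alone and take every read as independent. Where reads of 1 molecule repeat, these intervals are too narrow. The fit per clean read was tested on simulated data of 520 features, of which 200 were changed. The features were drawn independently with 1 common spread, so recovery in the real data may be lower. For curcumin-treated against old mice it recovered 16.4% of true log2 changes of 1 and 76.1% of those of 2. A member that did not pass may therefore still have changed by such an amount.

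All 6 members and their sum are described. The rule for other names took the 5 precursors most correlated with the sum, relatives with the same bases 2 to 7, and the most abundant members of 2 lists from general knowledge of heart muscle division. The members and lists were chosen with earlier results of these data known. Alternatives were TMM scaling, DESeq2 1.42.0, no filter on low counts, genome-matched reads only, the replicate number as a block, loci of 1 miRNA summed, and fits without the 3 libraries numbered 1 or without each library in turn. Replicate numbers come from the sample titles. Deviations of same-numbered libraries from their group means correlated at Pearson r of 0.32 to 0.80 between old and young, 0.18 to 0.35 between curcumin-treated and young and −0.10 to 0.39 between curcumin-treated and old mice. Every pair was above a limit of 0.1 in both comparisons with young mice, but not between curcumin-treated and old mice. The titles give numbers and state no pairing, and these correlations come from the same data, so they cannot show that the libraries were paired. The main fits leave any pairing out, so their SE and p-values ignore it, and the block is given as an alternative. With the block, mir-15b per clean read moved from −1.54 to −0.82 in old and from −0.55 to 0.41 in curcumin-treated mice, each against young mice. Gene positions came from the GENCODE annotation of mm10 and sequences from RefSeq.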

Additional observations from a re-analysis of the deposited data

How the results depend on the processing

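No member passed in any fit of all 9 libraries. Calls of all features stayed at 0 in old against young mice under every alternative. In curcumin-treated against old mice there were 33 per clean read and 27 per miRNA read without the 3 libraries numbered 1, and 2 per miRNA read with no filter on low counts. In curcumin-treated against young mice DESeq2 called 1 on each scale, and without the libraries numbered 1 there were 33 per clean read and 40 per miRNA read. Per miRNA read there were also 5 with no filter, 4 with a replicate block, and 0 to 31 without single libraries, with 31 without young replicate 1. The cause was not tested.

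Without the libraries numbered 1, log2 changes turned in sign for the following. In old against young mice per clean read they were 0.29 (mir-15a), 0.40 (mir-15b), 0.28 (each miR-16 locus), 0.06 (mir-195a) and 0.72 (mir-497a), and per miRNA read 0.08 (mir-15a), 0.35 (mir-15b) and 0.16 (each miR-16 locus). In curcumin-treated against young mice per clean read they were 1.75 (mir-15b) and 0.97 (each miR-16 locus), and per miRNA read 0.45 (mir-15a) and 0.53 (mir-15b). In curcumin-treated against old mice mir-497a turned to −0.03 per miRNA read. The summed family moved to 1.01 per clean read in curcumin-treated against young mice (0.30 with all libraries), and in old against young mice to 0.25 per clean read (−0.20 with all libraries) and 0.15 per miRNA read (−0.10 with all libraries).

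TMM scaling and DESeq2 turned mir-497a to 0.07 in old against young mice per clean read, mir-15a to 0.14 in curcumin-treated against young mice per miRNA read, and mir-195a there to 0.24 and 0.27. The replicate block turned mir-497a to 0.12 in old against young mice per clean read, and in curcumin-treated against young mice mir-15b to 0.41 and each miR-16 locus to 0.27 per clean read, and mir-15a to 0.02 and mir-195a to 0.00 per miRNA read. The block changed no call of a member, and no count of calls other than that of 4.

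Leaving out single libraries gave these ranges of log2 changes that crossed 0. In old against young mice per clean read they were −1.06 to 0.71 (mir-15a), −2.07 to 0.80 (mir-15b), −0.78 to 0.45 (mir-16-1), −0.79 to 0.45 (mir-16-2), −0.43 to 0.16 (mir-195a) and −0.57 to 0.89 (mir-497a). Per miRNA read they were −0.51 to 0.13 (mir-15a), −1.25 to 0.37 (mir-15b), −0.23 to 0.05 (each miR-16 locus), −0.31 to 0.04 (mir-195a) and −0.02 to 0.50 (mir-497a). In curcumin-treated against young mice they were −0.13 to 1.60 (mir-15a), −1.09 to 1.79 (mir-15b) and −0.35 to 0.89 (each miR-16 locus) per clean read, and −0.28 to 0.36 (mir-15a), −0.94 to 0.68 (mir-15b) and −0.19 to 0.16 (mir-195a) per miRNA read. In curcumin-treated against old mice they were −0.05 to 0.24 (mir-195a) and −0.01 to 0.20 (mir-497a) per miRNA read. The summed family ranged from −0.62 to 0.42 per clean read and −0.24 to 0.05 per miRNA read in old against young mice, and from −0.12 to 0.92 per clean read in curcumin-treated against young mice. Where an arm was left with few libraries, the fit pools the spread over groups.

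Some changes kept their sign but moved by over 1.5 times without single libraries. In curcumin-treated against old mice per clean read the ranges were 0.22 to 0.61 (each miR-16 locus), 0.56 to 1.31 (mir-15a) and 0.23 to 0.66 (summed family), and per miRNA read 0.10 to 0.32 (mir-15a), 0.16 to 0.43 (mir-15b) and −0.43 to −0.14 (summed family). In curcumin-treated against young mice they were 0.43 to 1.03 (mir-195a) and 0.25 to 1.71 (mir-497a) per clean read and 0.09 to 0.62 (mir-497a) per miRNA read.

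miR-16 per miRNA read kept its negative sign in both comparisons of curcumin-treated mice under all alternatives run, at −0.45 to −0.16 against old and −0.46 to −0.29 against young mice without single libraries. With TMM scaling and with DESeq2 it was nearer to no change, at −0.09 against old mice for mir-16-1. Negative values were general on this scale, with miRNA medians of −0.25 and −0.31 and with 30.7% and 28.0% of tested miRNAs positive against old and young mice. Reads limit mir-15b and mir-497a most, with as few as 14 and 12 in a library.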
